A study of Monodelphis domestica with 8 samples.

Results

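The H3K9Ac peaks on chromosomes 1 to 8 of the gray short-tailed opossum (Monodelphis domestica), a laboratory marsupial, numbered 11858. They were every peak on those chromosomes in the deposited H3K9Ac list of 12157. The 108 peaks on X and the 191 on unplaced sequence were left out. The list belongs to a chromatin immunoprecipitation and sequencing (ChIP-seq) study of female fetal brain at embryonic day 13 with 8 libraries, 2 for each of H3K9Ac, H3K4me3, H3K27me3 and H3K9me3, and 4 peak lists. One library of each mark came from a pool of 2 sisters of an LL2 mother and an LL2 father, and the other from 2 sisters of an LL1 mother and an LL2 father. Chromatin of a pool was cut with micrococcal nuclease and shared equally among the antibodies, so the 4 lists are not from separate tissue. Fetal brain holds many cell types, and a peak does not tell which of them carried the mark. Both H3K9Ac libraries point to the same peak list. There is therefore 1 set of values, with no replicate error, and no test between samples could be made. Intervals below are exact 95% intervals that cover the counting of peaks only. The lists carry no read counts, so the depth behind a peak is unknown.

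Acetylation of lysine 9 of histone H3 is placed by acetyltransferases such as GCN5 and PCAF and removed by histone deacetylases. It neutralises the charge of the lysine and is bound by reader proteins with bromodomains or YEATS domains. The mark is typical of active promoters, where it sits on the nucleosomes beside the transcription start. H3K4me3, written by the SET1 and MLL complexes, marks much the same promoters, including many CpG-island promoters with little transcription. H3K27me3 is the product of Polycomb repressive complex 2, and H3K9me3 is typical of heterochromatin.

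H3K9Ac peaks had a smaller median width than H3K4me3 peaks, and their scores were bunched toward the low end of the list. The median width was 1017 bp (interval 1007 to 1029 bp, quartiles 792 and 1372 bp), compared with 2029 bp for the 22086 autosomal H3K4me3 peaks. Widths were bunched at the low end, with 2578 peaks (21.7%) from 700 to 799 bp, and 772 (6.51%) reached 2000 bp. Only 64 H3K9Ac peaks (0.540%) were 3000 bp or wider, against 5327 H3K4me3 peaks (24.1%). The authors' score per peak began at 50.01, with a median of 84.5 (interval 83.2 to 85.8) and an upper quartile of 134. There were 2800 peaks (23.6%) under 60 and 341 (2.88%) at 300 or more. Together the peaks covered 13.8 Mb, or 0.402% of the autosomes. The 7125 peaks (60.1%) under 100 held less of that length than the others, which held 54.0%.

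Strong peaks were wide peaks. In the lowest of 5 equal classes of score the median width was 775 bp (quartiles 742 and 797 bp), close to that of the next class at 811 bp. It was 1027 bp in the middle class, 1292 bp in the fourth and 1768 bp (quartiles 1474 and 2087 bp) in the highest. Over all 11858 peaks the Spearman rho of width and score was 0.83 and Pearson's r 0.84. Both values come from the same peak call, so they are not independent measures.

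**Figure D1:**
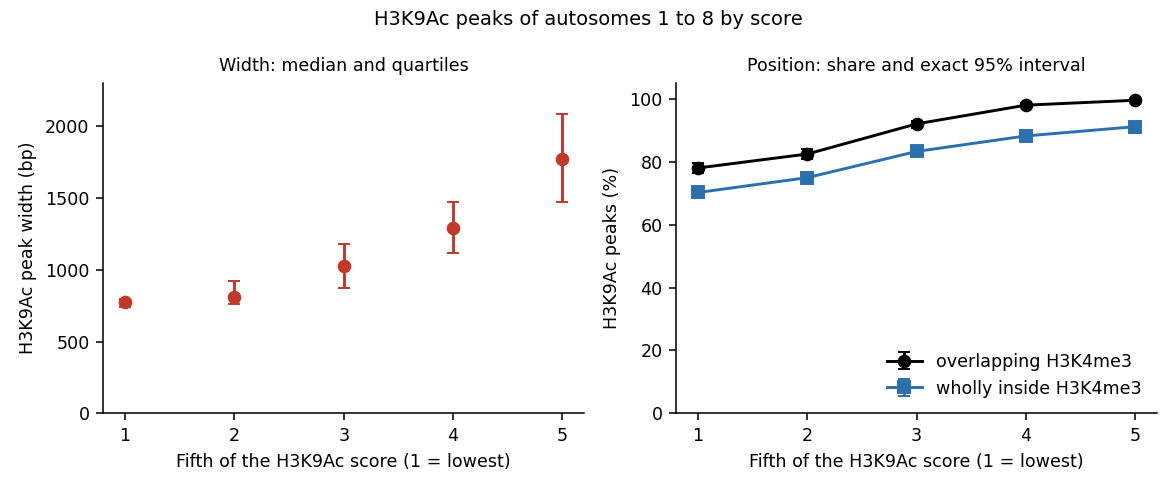
H3K9Ac peaks in 5 equal classes of the authors' score (x axis, 1 lowest). The left panel plots median width in bp with quartiles, which goes from 775 to 1768 bp. The right panel plots the percentage that overlaps H3K4me3 (78.0% to 99.5%) or lies wholly inside it (70.2% to 91.1%), with exact 95% intervals.

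The strongest peak of every autosome lay on H3K4me3, as did 99.5% of all peaks in the highest of the 5 score classes. The highest score of the whole set, 1185, belonged to chromosome 3 from 211982618 to 211989156, which was also the widest peak at 6539 bp. It filled most of an H3K4me3 peak of 6700 bp, and the nearest H3K27me3 was 3208 kb away. The next was chromosome 8 from 156340246 to 156346354, with a score of 1155 and a width of 6109 bp, in an H3K4me3 peak of 11840 bp. Both H3K4me3 peaks scored 3100, a value shared by 106 H3K4me3 peaks and exceeded by 31, so that scores there do not rank the peaks. On chromosome 2 the peak from 142718666 to 142722103 scored 806 and on chromosome 1 the peak from 499038815 to 499043847 scored 751. The maxima of chromosomes 5, 4 and 6 were 647, 626 and 620. Chromosome 7 had the lowest maximum, 472, from 35929990 to 35933073. None of these 8 peaks touched H3K27me3 or H3K9me3, which only 1.22% and 0.506% of the highest score class did. The chromosome 4 maximum, from 371609461 to 371611320, was the narrowest of the 8, at 1860 bp within an H3K4me3 peak of 6681 bp, which is still just above the 90th percentile of all H3K9Ac widths, 1830 bp. The third-widest peak, on chromosome 2 from 155644717 to 155650158 (5442 bp, score 519), went beyond its H3K4me3 and touched 2 weak peaks of that mark, the stronger of which scored 269.

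Most H3K9Ac lay inside H3K4me3. Of the 11858 peaks, 9670 (81.5%, interval 80.8% to 82.2%) were wholly inside, 1002 (8.45%) crossed an edge and 1186 (interval 9.47% to 10.6%) shared no base with H3K4me3. By length, 91.4% of the H3K9Ac bases were under H3K4me3, while H3K9Ac covered 24.1% of the H3K4me3 bases. Peaks wholly inside had a median score of 90.9 and a median width of 1060 bp. Peaks across an edge were similar, at 90.2 and 1126 bp. The outside peaks were at 59.7 (interval 59.1 to 60.3) and 790 bp (785 to 794 bp).

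The share outside was tied to the score. It was 522 of 2373 peaks in the lowest score class, 416, 189 and 48 in the classes above it, and 11 of 2371 in the highest. The overlapping share thus went from 78.0% (76.3% to 79.7%) to 99.5% (99.2% to 99.8%). In 4 of the 5 classes the median widths inside and outside were closer than over all peaks, the exception being the highest. The medians were 776 bp inside and 773 bp outside in the lowest class, 1032 and 970 bp in the middle one and 1292 and 1297 bp in the fourth. In the highest, with 11 peaks outside, they were 1770 and 1462 bp.

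Few of the outside peaks lay right beside H3K4me3. Their median distance to the nearest H3K4me3 edge was 28.8 kb (quartiles 8.09 and 80.2 kb), and 82 (6.91%) lay within 1 kb. Their median score was 61.5 within 1 kb, 60.4 from 1 to 5 kb and 59.3 beyond 100 kb, so the score barely varied with the distance. The strongest was on chromosome 6 from 199565391 to 199567113, with a score of 228 and the nearest H3K4me3 130 kb away. The second, on chromosome 2 from 154996426 to 154997887 (score 206), lay 0.232 kb from H3K4me3. The third, on chromosome 2 from 64665412 to 64667007 (score 187), lay 2.81 kb away. Of the outside peaks, 59 (4.97%) scored 100 or more, compared with 43.8% of the 10672 peaks that overlapped H3K4me3.

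Seen from H3K4me3, 9357 of 22086 peaks (42.4%, interval 41.7% to 43.0%) held H3K9Ac. Acetylated here means overlapping a listed H3K9Ac peak. The list begins at a score of 50.01, so a missing peak is not proof that the mark was absent. How far the acetylated shares here and below depend on this limit was not tested. Over 10 equal classes of the H3K4me3 score, the acetylated share was 6.56% in the lowest (145 of 2210), 31.6% in the fifth, 56.3% in the seventh and 90.04% in the highest (1989 of 2209). The H3K9Ac peaks themselves were also stronger there, with a median score of 64.2 in the lowest class and 116 in the highest. Among overlapping peaks the strength of the marks was only loosely graded, with a Spearman rho of 0.29 over 10739 pairs, and 0.19 for their widths. H3K4me3 peaks without H3K9Ac do not enter these values, and those with several H3K9Ac peaks enter more than once. The rho thus does not measure the relation over all H3K4me3 peaks. These pairs come from the same chromatin, and peaks are not replicates.

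Width of H3K4me3 gave a similar order, from 7.06% in the narrowest class to 79.3% in the widest, but score and width go together. With both divided into 5 classes, the acetylated share in the middle width class was 20.4%, 38.3%, 66.4% and 75.5% from the second to the highest score class. In the middle score class it was 40.97%, 37.6%, 38.3%, 31.9% and 33.0% from the narrowest to the widest. In the lowest score class it was 7.89% and 10.9% in the narrowest and the second width class. In the second score class it was 15.2%, 18.5%, 20.4% and 19.3% over the first 4 width classes. The wider classes held 43 peaks or fewer each and did not continue the rise. There 2 of 43, 0 of 7 and 0 of 18 peaks of the lowest score class were acetylated, and 0 of 19 of the second. In the fourth score class it was 66.4%, 66.1% and 55.1% from the middle to the widest, and in the narrower classes 57 of 114 and 2 of 8 peaks were acetylated. In the highest it was 75.5%, 87.2% and 85.5% over the same widths, with 0 of 3 and 5 of 21 in the narrower classes, so the order by width was not the same in every score class. Several H3K9Ac peaks were more frequent in wider H3K4me3 peaks. In the highest score class, 3.64% of the middle width class, 7.22% of the fourth and 25.6% of the widest held 2 or more.

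Among acetylated H3K4me3 peaks, 8147 (87.1%) held 1 H3K9Ac peak, 1067 (11.4%) held 2, 122 (1.30%) held 3 and 21 held 4 or more. Median H3K4me3 widths were 1559 bp with no H3K9Ac, 2624 bp with 1 peak, 4046 bp with 2, 6274 bp with 3 and 10208 bp with 4 or more. The corresponding median H3K4me3 scores were 165, 732, 1330, 2081 and 3100, the last being the tied value named above. The count of H3K9Ac peaks depends on where the peak call broke a region. When H3K9Ac peaks under 200 bp apart were joined, the share of acetylated H3K4me3 with 2 or more went from 12.9% to 6.57%, and with those under 1000 bp joined it was 1.92%.

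The most divided H3K4me3 peak, on chromosome 1 from 133705873 to 133726376, was 20504 bp long and held 8 H3K9Ac peaks scoring 59.0 to 313. It also touched 3 H3K27me3 peaks. On the same chromosome, 109382588 to 109392795 held 5 H3K9Ac peaks and no H3K27me3, and 624942298 to 624960718 held 5 with 6 H3K27me3 peaks. At the other extreme, the highest-scoring H3K4me3 peak with no H3K9Ac was on chromosome 3 from 455036169 to 455041992. Its score of 3152 lies just above the tied value of 3100, where scores do not rank the peaks. It was 5824 bp wide and lay 114 kb from H3K27me3. The next 2 were close to one another on chromosome 2, from 52094104 to 52106351 and from 52143639 to 52149026. Each touched an H3K27me3 peak. They are 2 of the 3 H3K4me3 peaks without H3K9Ac that are tied at 3100, taken in order of position.

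The centre of a lone H3K9Ac peak mostly lay within 500 bp of that of its H3K4me3 peak. An H3K9Ac peak wholly inside cannot lie far from the centre, the less so the more of the H3K4me3 peak it spans, and whether the centres were closer than this requires was not tested. The distance between the 2 centres had a median of 258 bp (quartiles 116 and 527 bp) over 8147 cases, and 5998 (73.6%) were within 500 bp. The lone peak spanned a median of 46.6% of the H3K4me3 width (quartiles 33.1% and 61.4%). Its width did not keep pace with that of its H3K4me3 peak. In the 5 classes of H3K4me3 width it was 897, 1049, 1219, 1260 and 1304 bp, and so the share spanned went from 65.2% to 29.7%. The offset of the centres was 139 bp in the narrowest class and 755 bp in the widest, or 9.94% and 17.0% of the H3K4me3 width. The H3K9Ac centre lay at the lower coordinate in 4251 of 8142 cases with an offset (52.2%). Gene orientation was not used, so the side facing the gene body is unknown.

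Where 2 H3K9Ac peaks shared an H3K4me3 peak, their centres lay on opposite sides of its centre in 786 of 1067 pairs (73.7%, interval 70.9% to 76.3%). Pairs that fill much of an H3K4me3 peak must often do so, and whether the share is above that was not tested. The facing edges were a median of 178 bp apart (quartiles 71 and 505 bp), and 572 pairs (53.6%) were under 200 bp. The stronger member had a median score of 111 and the weaker 62.5. Their scores were not correlated (Spearman rho -0.02, Pearson r 0.01, 1067 pairs).

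**Figure D2:**
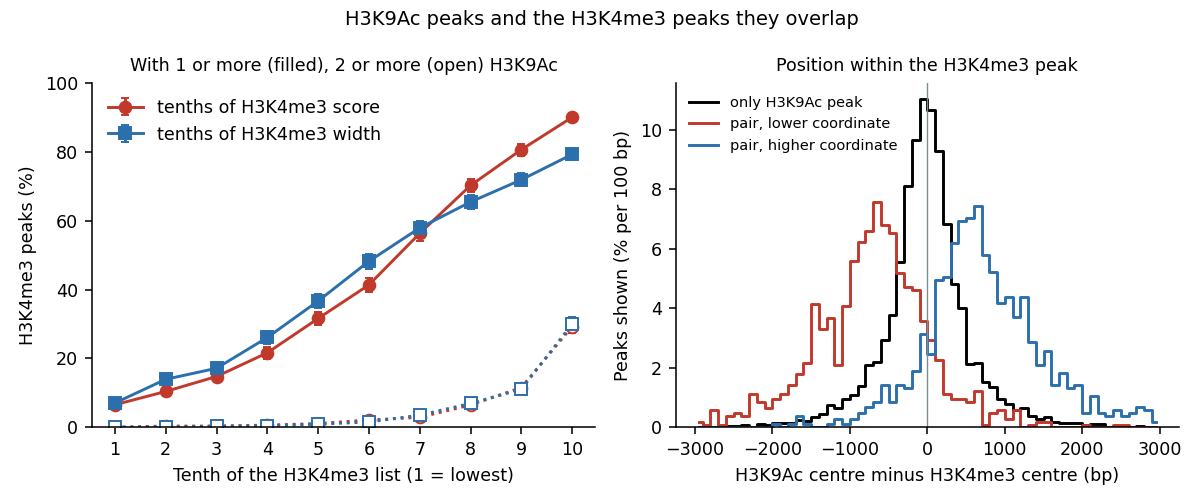
Left, percentage of H3K4me3 peaks with at least 1 H3K9Ac peak (filled) or at least 2 (open) in 10 equal classes of H3K4me3 score or width, with exact 95% intervals. Right, H3K9Ac centre relative to the H3K4me3 centre in bp, as the percentage per 100 bp of the peaks shown. Lone peaks are most frequent around 0, and the members of a pair mostly to either side.

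H3K9Ac spacing had a short and a long component. The median gap between neighbours was 94.3 kb (quartiles 22.4 and 272 kb) and the mean 287 kb (SD 642 kb, 11850 gaps). Gaps under 1 kb made up 11.2%, gaps from 1 to 5 kb 4.68%, and gaps from 20 to 500 kb were the bulk, with 3211 up to 100 kb and 4102 above. The short gaps mostly fell inside a single H3K4me3 peak, as did 1173 of the 1331 gaps under 1 kb (88.1%). The median gap within an H3K4me3 peak was 199 bp (quartiles 78 and 599 bp, 1364 gaps) and that between all other neighbours 122 kb (42.1 and 314 kb, 10486 gaps). Of the 526 gaps under 5 kb that did not lie in 1 H3K4me3 peak, 401 joined H3K9Ac peaks in separate H3K4me3 peaks, and 24 joined peaks that both lacked H3K4me3.

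**Figure D3:**
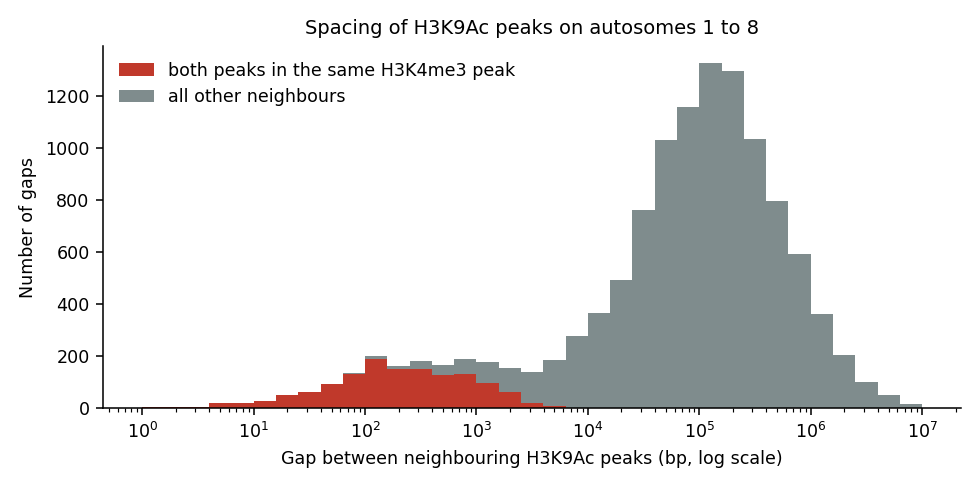
Number of gaps between neighbouring H3K9Ac peaks by length in bp (log axis). Gaps whose 2 peaks overlap the same H3K4me3 peak (red, median 199 bp) make up most of the short ones, and the rest (grey) have a median of 122 kb.

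Joining peaks under 5 kb apart gave 1571 clusters of 2 or more, with 3456 peaks (29.1%, interval 28.3% to 29.97%). H3K4me3, which has more peaks, had 29.0% of them in clusters when joined in the same way. The shares were less alike at other distances. Joined below 1 kb they were 21.5% for H3K9Ac and 18.6% for H3K4me3, and below 50 kb 58.0% and 68.3%. The H3K9Ac clusters at 5 kb were small, 1339 of them pairs, 178 of 3 peaks and 54 of 4 or more, with a median span of 2.83 kb. In 1084 clusters (69.0%) all peaks were in 1 H3K4me3 peak, 389 (24.8%) spread over several and 15 touched none. Clustered peaks overlapped H3K4me3 in 96.1% of cases and unclustered peaks in 87.5%. The share was 98.4% with the nearest neighbour under 1 kb away (2545 peaks) but 89.5% from 1 to 5 kb (911 peaks). Clustered peaks were no stronger, with median scores of 81.5 in pairs and 74.8 in groups of 3, 84.4 in larger groups and 86.3 alone.

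The cluster with the most peaks was on chromosome 1 from 133701925 to 133724341 (9 peaks over 22.4 kb), around the divided H3K4me3 peak above. It was followed by 8 peaks on chromosome 6 from 82117170 to 82130674, over 13.5 kb with 2 H3K4me3 peaks and 1 H3K9me3 peak. The longest, on chromosome 8 from 251853194 to 251882397, held 7 peaks over 29.2 kb, of which 18317 bp were covered. It touched 4 H3K4me3 peaks and no H3K27me3. Another on chromosome 2 from 155803793 to 155819820 had 5 peaks over 16.0 kb. In each of these 4 clusters the weakest peak scored under 60 and the strongest over 300.

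The 3 longest gaps between H3K9Ac peaks measured 11.6, 11.5 and 10.6 Mb. Of these, the gaps on chromosome 3 from 115964377 to 126592294 and from 126594597 to 138233436, were separated by 2 neighbouring H3K9Ac peaks only, which are named because of what the gaps showed. Those peaks, from 126592295 to 126593646 (score 98.1) and from 126593766 to 126594596 (score 52.9), share a single H3K4me3 peak of 3429 bp that scored 546. They are thus the only H3K9Ac in 22.3 Mb. The other long gap was on chromosome 7 from 141545989 to 153070268. Counting the H3K4me3 peaks at their borders, the gap of 11.6 Mb touched 3 H3K4me3 peaks and the other gaps 5 each. None of the 3 touched H3K27me3, while the chromosome 3 gaps of 11.6 and 10.6 Mb touched 2 and 1 H3K9me3 peaks. How much of these stretches could be mapped is not known from the lists.

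On the scale of 1 Mb, H3K9Ac was uneven. Over 3417 bins the mean was 3.46 peaks and the median 2, 872 bins (25.5%) held none, and the densest 341 bins held 34.8% of the peaks. The variance to mean ratio was 4.32, and 6.78 for H3K4me3, which has more peaks. Counts of the marks went together, with a Spearman rho of 0.85 and a Pearson r of 0.82 over bins, which share chromatin and mappability. H3K9Ac peaks per 100 H3K4me3 peaks were 55.4 in bins with 1 or 2 H3K4me3 peaks, 58.6 in bins with 6 to 10, 50.5 with 11 to 20 and 48.5 with 21 to 40. The 474 bins with no H3K4me3 centre held 22 H3K9Ac peaks in all. The densest bin, on chromosome 1 from 455000001 to 456000000, had 35 H3K9Ac peaks and touched 27 H3K4me3 peaks. Chromosome 2 supplied the next, from 257000001 to 258000000, with 32 H3K9Ac and 35 H3K4me3 peaks and no H3K27me3. The third was on chromosome 2 from 494000001 to 495000000, with 31 H3K9Ac, 64 H3K4me3 and 26 H3K27me3 peaks.

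The 8 autosomes differed in how many H3K9Ac peaks they had per Mb, with a coefficient of variation (CV) of 19.6%, more than in the median width (2.48%) or score (3.79%) of those peaks. Their share in H3K27me3, described last, had a CV of 20.6%. It rests on only 42 to 129 peaks per autosome, so counting error weighs more in it than in density. The highest was 7.29% on chromosome 7, against 4.06% to 5.36% on the others. In order of density, chromosome 2 had 4.14 peaks per Mb (2242 peaks, interval 3.97 to 4.32) and chromosome 6 had 3.92 (1141 peaks, 3.69 to 4.15). Chromosome 1 had 3.91 (2925 peaks, 3.77 to 4.06) and chromosome 4 had 3.59 (1561 peaks, 3.41 to 3.77). Chromosome 8 followed at 3.32 (1027 peaks, 3.12 to 3.53) and chromosome 3 at 2.95 (1555 peaks, 2.80 to 3.10). Chromosomes 5 and 7 were the sparsest, at 2.59 (790 peaks, 2.42 to 2.78) and 2.37 (617 peaks, 2.18 to 2.56). Of neighbours in this order, chromosomes 1 and 4, 8 and 3, and 3 and 5 have intervals that just miss each other, and the others overlap. Because peaks cluster, these counting intervals are too narrow. Over 10 Mb windows of a chromosome the SD was 1.09 (chromosome 5, 30 windows) to 2.86 peaks per Mb (chromosome 2, 54 windows). The SD among the 8 autosomes was 0.658. Each autosome averages 26 to 74 windows, so that SD and those of single windows are not of like quantities.

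Density of H3K9Ac followed that of H3K4me3 across the autosomes (Pearson r 0.97, Spearman rho 0.93, 8 autosomes) more closely than it followed length (r 0.53, rho 0.52). H3K9Ac peaks per 100 H3K4me3 peaks stayed between 49.5 on chromosome 3 and 57.7 on chromosome 6, whereas density ranged 1.75-fold. The acetylated share of H3K4me3 was highest on chromosomes 6 and 1, at 45.0% (42.8% to 47.3%) and 44.7% (43.4% to 46.1%), and lowest on chromosome 3, at 39.4% (37.7% to 41.1%). H3K4me3 itself had its highest median scores on chromosomes 6 and 1, at 375 and 367, against 340 on chromosome 3 and 308 on chromosome 7. Weighting every autosome to the same mix of 10 H3K4me3 score classes gave 43.8%, 43.5% and 39.7% for chromosomes 6, 1 and 3, and took chromosome 7 from 41.6% to 43.8%. Chromosome 3 remained the lowest. Its value is an average over unlike parts. From 430 to 520 Mb, a stretch named because of its values, every 10 Mb window had fewer H3K9Ac peaks per 100 H3K4me3 peaks than 56.1. That is the median of all windows with at least 30 H3K4me3 peaks. Windows in the other part of chromosome 3 lay on both sides of it. Such a stretch was not particular to chromosome 3. Every window of chromosome 4 from 350 to 430 Mb was also below 56.1. The same held for chromosome 1 from 680 to 740 Mb and chromosome 2 from 500 to 540 Mb.

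Peak width and score varied less among the autosomes. Median widths lay between 985 bp on chromosome 5 (929 to 1018 bp) and 1050 bp on chromosome 4 (1014 to 1080 bp). Median scores lay between 79.1 on chromosome 5 (74.4 to 83.5) and 88.5 on chromosome 7 (80.9 to 93.0). The interval of chromosome 5 lies below those of chromosome 4 (85.2 to 91.9) and chromosome 1 (83.7 to 89.1), and the other score intervals overlap it. The overlapping share in H3K4me3 was 88.9% on chromosome 6 to 91.8% on chromosome 4, and the wholly inside share 78.6% on chromosome 7 to 83.9% on chromosome 8. The share of peaks in clusters was 27.01% on chromosome 1 (25.4% to 28.7%), 31.8% on chromosome 2 (29.8% to 33.7%) and 32.8% on chromosome 5 (29.5% to 36.2%). Chromosome 5, with few peaks per Mb, was thus among the more clustered. It also had the largest share of acetylated H3K4me3 with 2 or more H3K9Ac peaks, 15.5% (12.7% to 18.6%), against 11.4% on chromosome 1 (10.2% to 12.8%).

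**Figure D4:**
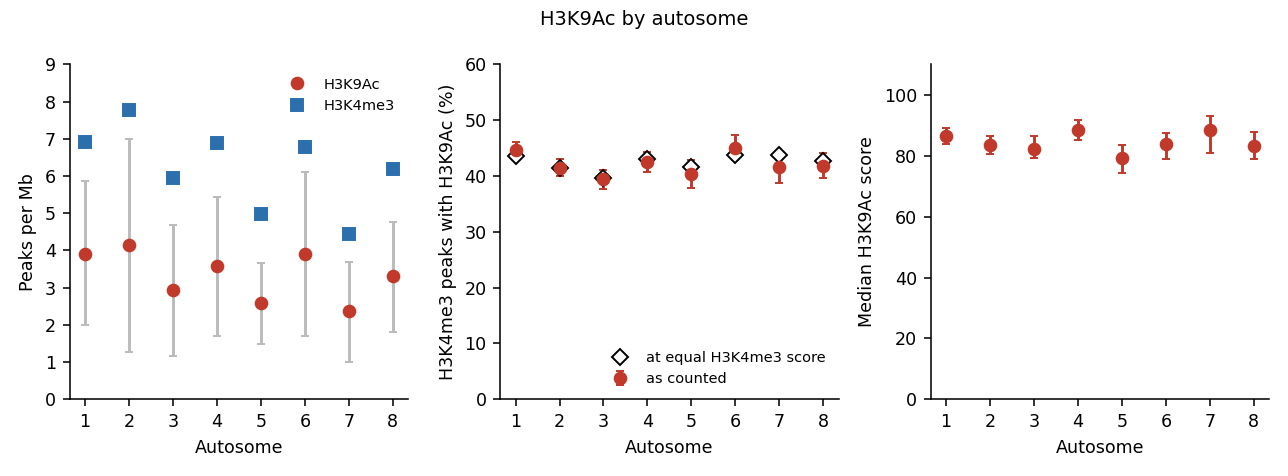
H3K9Ac by autosome. Left, peaks per Mb of H3K9Ac (circles) and H3K4me3 (squares), with grey bars for the mean ± SD of H3K9Ac over 10 Mb windows. Middle, percentage of H3K4me3 peaks with H3K9Ac with exact 95% intervals, and the same at an equal mix of H3K4me3 scores. Right, median H3K9Ac score with its exact 95% interval. Density ranges from 2.37 to 4.14 per Mb, while medians of score stay between 79.1 and 88.5.

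Toward the chromosome ends the marks parted. With all 16 ends pooled, H3K4me3 was denser there. It had 10.3 peaks per Mb in the outer 2 Mb (interval 9.26 to 11.5) against 6.03 (5.93 to 6.12) more than 50 Mb from an end. H3K9Ac was not denser, at 3.59 per Mb (2.97 to 4.31) and 3.48 (3.41 to 3.55). Single ends differed. In their outer 10 Mb H3K4me3 had 3.9 per Mb at the starts of chromosomes 3 and 7 and 15.8 at the far end of chromosome 3. It was also below 6.03 at the starts of chromosomes 5, 6 and 8 and the far end of chromosome 8. H3K9Ac ranged from 1.3 per Mb at the start of chromosome 7 to 7.3 at that of chromosome 4. The acetylated share of H3K4me3 was 25.7% (21.1% to 30.7%, 85 of 331) in the outer 2 Mb, 27.01% from 2 to 5 Mb and 32.1% from 5 to 10 Mb. It was 35.3% from 10 to 20 Mb, 36.0% from 20 to 50 Mb and 45.5% (44.8% to 46.3%, 7198 of 15803) farther in. H3K9Ac peaks were also weaker near the ends, with a median score of 68.9 in the outer 2 Mb and 88.2 beyond 50 Mb.

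H3K4me3 scores moved in the same direction, with medians of 216 in the outer 2 Mb and 387 beyond 50 Mb. Weighted to the same mix of H3K4me3 scores, the acetylated share was 34.3% in the outer 2 Mb, 37.2% from 5 to 10 Mb and 43.7% beyond 50 Mb, so the difference was smaller but had the same direction. The part of mappability or base composition was not tested. By chromosome, the outer 10 Mb had a lower acetylated share than the rest of the same chromosome at 13 of 16 ends. At 9 of them the intervals did not overlap, but they treat neighbouring peaks as independent and may be too narrow. The lowest share was at the far end of chromosome 1, with 12 of 78 H3K4me3 peaks (15.4%, 8.21% to 25.3%) against 45.5% in the rest. At the low-coordinate ends of chromosomes 3, 4 and 6 the share was higher than in the rest, but for chromosomes 3 (48.7%, 32.4% to 65.2%) and 6 (49.0%, 34.8% to 63.4%) the intervals overlap that of the rest. At the start of chromosome 4 it was 59.6% (49.3% to 69.3%, 59 of 99) against 42.4%, with a median H3K4me3 score of 587. The start of chromosome 6, with a lower share, had a higher median score, 603. On chromosome 3 the median score was 356 at the start and 349 at the far end, where the share was 23.4%. Distances were counted from position 0 and from the last peak of any mark, and the first peak on chromosome 8 lies 3.02 Mb in.

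**Figure D5:**
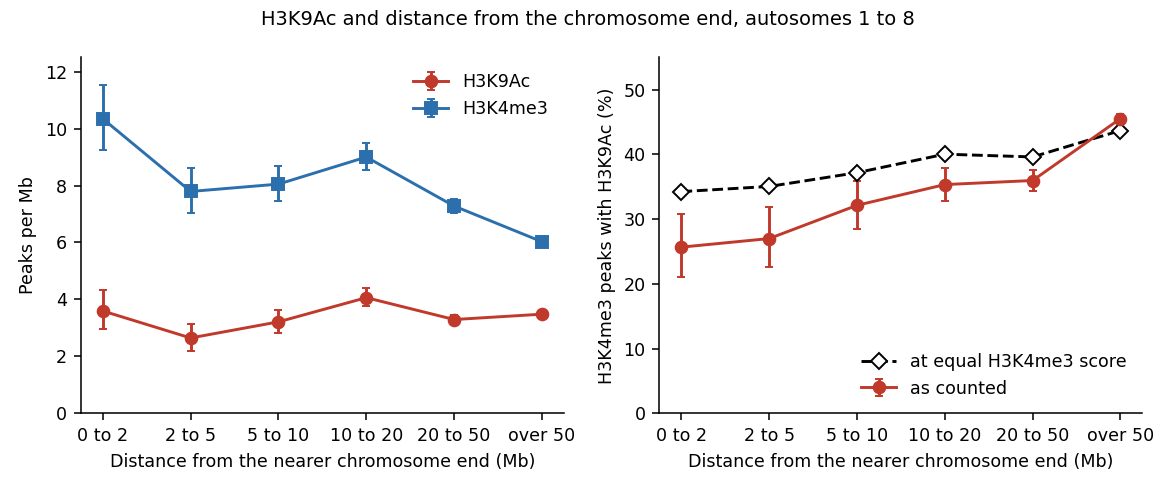
Peaks by distance from the nearer chromosome end in Mb, 8 autosomes together. Left, peaks per Mb with exact Poisson 95% intervals, which for H3K4me3 go from 10.3 in the outer 2 Mb to 6.03 beyond 50 Mb, while H3K9Ac stays between 2.65 and 4.06. Right, percentage of H3K4me3 peaks with H3K9Ac as counted (exact 95% intervals) and at an equal mix of H3K4me3 scores.

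Few H3K9Ac peaks overlapped a repressive mark. Those lists are themselves short, with 7485 autosomal H3K27me3 peaks over 0.546% of the autosomes and 699 H3K9me3 peaks over 0.0215%. Whether H3K9Ac met these marks more or less often than H3K4me3 peaks in general was not tested. In all, 554 (4.67%, interval 4.30% to 5.07%) overlapped H3K27me3, and 531 of these also lay in H3K4me3. They were weaker and narrower than the rest, with medians of 65.3 (63.5 to 67.9) against 86.1 (84.6 to 87.4) in score and 873 bp against 1029 bp in width. The share went down with the H3K9Ac score, from 7.46% (177 peaks) in the lowest of 5 classes to 1.22% (29 peaks) in the highest. Among peaks outside H3K4me3 it was 1.94% (23 of 1186), and among those overlapping H3K4me3 4.98% (531 of 10672). By autosome it was 4.06% to 5.36% on 7 of the 8 and 7.29% on chromosome 7 (45 of 617, 5.37% to 9.64%). The interval of chromosome 7 lies above those of chromosomes 1 (3.70% to 5.22%) and 2 (3.28% to 4.96%) and overlaps the other 5.

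H3K9me3 met 34 H3K9Ac peaks (0.287%), of which 30 were in H3K4me3. Unlike the peaks in H3K27me3 they were not weak, with a median score of 99.8 (79.9 to 158). Chromosome 4 had 8 of them and chromosome 5 none of 790. Only 8 H3K9Ac peaks overlapped all 3 other marks. In all, 10119 H3K9Ac peaks (85.3%) had H3K4me3 and neither repressive mark, and 1161 (9.79%) had no other mark.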

How the data were processed

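Per the submitters' processing notes, CASAVA 1.7, Bowtie 1.1.2 and MACS 1.0.1 were used. How 2 libraries gave 1 list, the settings, the build and any control are not given in the sources used. The deposited lists hold a start, an end and a score per peak. The score is the authors', its formula is not given, and it was used within a list only. Positions are printed counting from 1. One H3K9Ac peak starts below position 0 and was kept. No gene annotation or sequence was used.

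Overlap needed 1 bp, clusters were peaks under 5 kb apart, and chromosome length was the stretch holding peaks of any of the 4 marks. Peaks went into bins by their centre, whole bins only. Shares have exact binomial intervals, counts exact Poisson intervals and medians order-statistic intervals, all 95%. Equal-score shares weight 10 H3K4me3 score classes by their share of all autosomal H3K4me3 peaks. No test was run. The functions were tested on simulated lists. Members, lists and region rules (the strongest peak per autosome, and the first 3 by width, cluster size, gap, bin count, and score outside H3K4me3, with the extreme H3K4me3 peaks) were chosen with earlier results of these data known. Alternatives are in the closing section. Computation used Python 3.11.15, numpy 2.4.6, pandas 2.3.3, scipy 1.17.1 and matplotlib 3.10.9.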

Additional observations from a re-analysis of the deposited data

How the results depend on the processing

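No paired analysis was possible because both libraries of a mark share 1 list. Of 74 alternatives to 16 values, 33 stayed within the interval of the reported value (1 SD over autosomes for the variance to mean ratio) and 41 did not. The reported 3.47 peaks per Mb became 1.73 for the top-scoring 50% of peaks and 3.08 with peaks under 1 kb apart joined, and without 1 autosome in turn it was 3.34 to 3.56. Cover was 0.256% and 0.413% in the same settings, and 0.386% to 0.415% without 1 autosome. Median width was 1366 bp and 1126 bp. The clustered share was 21.5%, 34.1%, 41.7% and 58.0% when joined below 1, 10, 20 and 50 kb, and 14.0% for the top-scoring 50%, for which the median gap was 201 kb and the variance to mean ratio 2.67. That ratio was 3.15, 5.99 and 8.58 in bins of 0.5, 2 and 5 Mb. The share in H3K4me3 was 89.3% when 50% of the H3K9Ac peak had to be covered, 81.5% when all of it, 74.1% in the top-scoring 50% of H3K4me3 peaks and 97.8% for the top-scoring 50% of H3K9Ac. With 50% of the peak covered, 3.42% lay in H3K27me3 and 0.160% in H3K9me3. The share of acetylated H3K4me3 with 2 or more H3K9Ac peaks became 6.57% and 1.92% with peaks under 200 and 1000 bp apart joined. For these ratios and shares the settings themselves change what is counted.

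Alternatives for the chromosome ends were chosen after seeing the data. The acetylated share in the outer 10 Mb, 29.1% against 43.2% elsewhere, was 26.4% in the outer 5 Mb, 32.3% in the outer 20 Mb, 35.9% at equal H3K4me3 score and, without 1 autosome in turn, 26.0% to 31.2% at the ends and 42.5% to 43.7% elsewhere. Among the top-scoring 50% of H3K4me3 peaks it was 53.0% at the ends and 68.5% elsewhere. The joining of H3K9Ac peaks within H3K4me3 was also added after seeing the data.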

Other observations

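Scores of neighbouring H3K9Ac peaks were at most weakly related. The Spearman rho was -0.03 for neighbours under 1 kb apart (1331 pairs), 0.06 from 1 to 5 kb, 0.11 from 5 to 20 kb, 0.09 from 20 to 100 kb and 0.05 from 100 to 500 kb. Counts per 1 Mb bin did resemble those of the next bin (rho 0.38, Pearson r 0.37, 3409 pairs of bins).

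The balance of the active marks varied along the autosomes. Among 288 windows of 10 Mb with at least 30 H3K4me3 peaks, the median was 56.1 H3K9Ac peaks per 100 H3K4me3 peaks (quartiles 47.9 and 66.0). These windows are named because of their values. The lowest was on chromosome 3 from 500 to 510 Mb, with 28 H3K9Ac and 169 H3K4me3 peaks (16.6 per 100). It was followed by the last whole windows of chromosome 7 (14 and 63 peaks, 22.2 per 100) and chromosome 2 (27 and 117 peaks, 23.1 per 100). The highest was on chromosome 2 from 150 to 160 Mb, with 47 H3K9Ac and 43 H3K4me3 peaks (109 per 100). The window with the most H3K9Ac was on chromosome 2 from 250 to 260 Mb, with 161 peaks, and the only window without any was on chromosome 1 from 670 to 680 Mb, which held 3 H3K4me3 peaks.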
